A study of Homo sapiens with 12 samples.

Results

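The 33 genes described here act in G2 phase and mitosis: cyclins and their kinase partners, mitotic kinases, spindle checkpoint and anaphase-promoting complex (APC/C) factors, centromere and chromosome proteins, spindle proteins and motors, and cytokinesis factors. They were taken as a list of names, with no measured value in the rule, and each symbol matched 1 of the 40173 gene IDs of the table. RNA was sequenced from 624Mel, an established human melanoma line, to ask whether loss of MITF, the transcription factor that directs melanocyte differentiation, alters the response to interferon-γ (IFNγ). Cells transfected with a negative control siRNA (siCTRL) or with 1 siRNA against MITF (siMITF) received, 24 h later, either no IFNγ or 5 ng/mL IFNγ for 24 h. The 4 conditions (siCTRL and siMITF, each alone and with IFNγ, written siCTRL + IFNγ and siMITF + IFNγ) had 3 libraries each with replicate numbers 1 to 3. Every library came from transfected cells, so siCTRL stands for control siRNA without IFNγ and not for unhandled cells, and the knockdown was transient and rested on a single siRNA sequence. Values are TPM, transcript levels per length scaled to one total per library, and depth is unknown. All 33 members passed the filter on low values (2 TPM or more on average in some condition) and were tested among 12773 gene IDs with limma on log2(TPM + 1). A member is said to have risen or fallen when its p adjusted by the Benjamini-Hochberg method over all 12773 genes was under 0.05. A fold on this scale understates the change of low genes.

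Entry into mitosis is driven by CDK1 bound to cyclin B, which CDC25 phosphatases switch on, while Aurora and Polo-like kinases build the spindle. The spindle checkpoint then holds back the APC/C with its activator CDC20 until every kinetochore is attached, and the cell divides once securin and cyclin B are destroyed. Transcripts of these genes peak in G2 and M under the MuvB complexes with B-MYB and FOXM1, which read CHR elements (cell cycle genes homology region), often beside CCAAT boxes bound by NF-Y, and they are repressed by the DREAM complex in resting cells, so that bulk RNA of cultures with many dividing cells holds more of them. In a bulk library, fewer cells in G2 and M and less of each RNA per cell cannot be told apart.

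The promoters of 5 members are shown for the motifs that such genes are known for: 4 that hold both the CHR letters TTTGAA and CCAAT, and CCNB1, whose window holds CCAAT without TTTGAA. Sequences are the RefSeq promoter table's (GRCh38.p14), 5′ to 3′ on the gene's strand, 150 bases that touch no exon of their own gene in GENCODE v44, with the 2 motifs on either strand in capitals. The CCNB2 stretch ends 20 bases and the CCNB1 stretch 15 bases before the RefSeq start, the other stretches at it. No exon of CCNB2, CDC20, MKI67 or CCNB1 is annotated further upstream, whereas the KIF11 stretch lies within the gene's annotated span, in an intron of longer transcripts, with 2 exons upstream of it. In MKI67 a TTTGAA and a CCAAT on the opposite strand overlap by 1 base.
CCNB2, chr15:59104976-59105125, + strand: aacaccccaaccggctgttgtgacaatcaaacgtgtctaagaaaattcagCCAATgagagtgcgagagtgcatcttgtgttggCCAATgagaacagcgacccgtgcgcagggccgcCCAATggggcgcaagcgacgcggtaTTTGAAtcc
CDC20, chr1:43358831-43358980, + strand: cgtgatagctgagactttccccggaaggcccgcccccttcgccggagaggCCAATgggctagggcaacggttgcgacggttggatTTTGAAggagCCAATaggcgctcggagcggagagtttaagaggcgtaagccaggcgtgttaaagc
MKI67, chr10:128126424-128126573, - strand: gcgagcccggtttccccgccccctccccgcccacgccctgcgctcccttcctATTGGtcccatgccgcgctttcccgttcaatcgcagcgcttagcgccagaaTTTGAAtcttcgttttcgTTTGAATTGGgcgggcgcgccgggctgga
KIF11, chr10:92592980-92593129, + strand: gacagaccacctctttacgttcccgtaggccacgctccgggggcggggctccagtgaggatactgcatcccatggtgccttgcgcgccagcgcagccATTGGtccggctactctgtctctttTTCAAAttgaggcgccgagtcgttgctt
CCNB1, chr5:69166985-69167134, + strand: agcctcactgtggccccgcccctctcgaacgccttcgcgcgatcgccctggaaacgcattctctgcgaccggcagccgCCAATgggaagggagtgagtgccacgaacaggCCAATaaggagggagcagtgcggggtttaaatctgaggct

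The table held promoters of 27 of the 33 members (AURKA, BIRC5, FOXM1, TPX2, TTK and UBE2C had no entry). Within 250 bases before the start, TTTGAA occurred on either strand in 15 of the 27 (55.6%), against 16.1% of the 27305 genes in the table. Unlike the stretches shown, these windows were not cleared of exons, and the 15 include PLK1 and HMMR, which had no exon-free stretch. The table held 35116 promoters, so some genes had several windows. CCAAT occurred in 23 (85.2%), against 37.0% of all genes, and both motifs in 13 (48.1%), against 5.79%. The CHR variant TTCGAA was in none of the 27 and in 1.5% of all genes. These matches describe letters in a window and say nothing of binding in 624Mel cells.

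MITF had a mean of 211 ± 21.7 TPM (SD, n = 3) in siCTRL libraries and 42.5 ± 6.87 TPM in siMITF libraries, and IRF1, an early IFNγ target, averaged 2.49 ± 0.292 TPM in siCTRL and 88.0 ± 12.8 TPM in siCTRL + IFNγ. All 8 melanocytic markers averaged at least 2 TPM over the 12 libraries. All 8 fell with siMITF without IFNγ (limma), against 13.8% of all tested genes. The 8 include MITF, the target of the siRNA, whose fall was set by the design. TRPM1 averaged 0.544 TPM in siMITF and 0.941 TPM in siMITF + IFNγ. Of the other lists, 4 of 6 fibroblast, 3 of 4 keratinocyte and 4 of 5 leukocyte markers stayed below 1 TPM in every library, among them COL3A1, KRT5, KRT14, PTPRC and CD3E. COL1A1 reached 1.24 TPM in its highest library, and 1 marker of each list was expressed above that. LUM of the fibroblast list averaged 4.77 TPM in siCTRL, 2.57 TPM in siCTRL + IFNγ, 6.91 TPM in siMITF and 4.06 TPM in siMITF + IFNγ, and LYZ of the leukocyte list 2.44, 1.46, 4.74 and 3.03 TPM in the same order. Both fell with IFNγ in each siRNA background and rose with siMITF with and without IFNγ (limma), so they moved with IFNγ and, without it, with siMITF in the same direction as most members. KRT10 of the keratinocyte list lay between 38.9 and 60.8 TPM and passed only for the combination against siCTRL (-0.31). The summed level of the fibroblast list ranged from 5.34 to 6.74 TPM in siCTRL, 2.70 to 3.90 TPM in siCTRL + IFNγ, 7.52 to 8.77 TPM in siMITF and 5.01 to 5.95 TPM in siMITF + IFNγ, and that of the leukocyte list from 2.99 to 3.19, 1.96 to 2.31, 4.62 to 5.55 and 3.93 to 4.35 TPM. The part of LUM and LYZ in the members' values was not tested. Mitochondrially encoded genes took from 7.42% to 16.9% of the TPM, and the library numbered 2 was lowest in each condition: 7.42% and 8.45% with siCTRL, without and with IFNγ, and 10.1% and 12.7% with siMITF. The share was higher with IFNγ in all 6 pairs of libraries with one siRNA and one number, from 14.2% to 16.9% and from 14.8% to 15.7% for numbers 1 and 3 with siCTRL and from 12.8% to 16.9% and from 14.0% to 16.1% with siMITF, so it moved with the treatment that lowered the members; values with these genes left out stand beside the IFNγ results.

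The summed level of the members was 3069 ± 141 TPM in siCTRL, 2383 ± 222 TPM in siCTRL + IFNγ, 3470 ± 107 TPM in siMITF and 2233 ± 102 TPM in siMITF + IFNγ (SD, n = 3). The single libraries summed to 2947, 3224 and 3036 TPM in siCTRL and to 2157, 2601 and 2391 TPM in siCTRL + IFNγ. They summed to 3437, 3589 and 3383 TPM in siMITF and to 2146, 2345 and 2208 TPM in siMITF + IFNγ. Each library with IFNγ was thus below each library without it, and the siMITF libraries were above the siCTRL libraries. The library numbered 2, which had the smallest mitochondrial share, held the highest sum of its condition in all 4 conditions.

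Without IFNγ and with siCTRL the members spanned a wide range of levels. PTTG1, securin, was highest with 242 ± 12.5 TPM, followed by UBE2C, the E2 enzyme of the APC/C, with 218 ± 8.39 TPM and CCNB1, cyclin B1, with 195 ± 9.11 TPM; the libraries of PTTG1 (228 to 251 TPM) and UBE2C (211 to 227 TPM) lay next to each other without overlap, and those of CCNB1 and CDK1 overlapped. CDK1, its kinase, followed with 173 ± 12.8 TPM and CDC20 with 168 ± 0.627 TPM, whose libraries overlapped as well. At the low end were CENPE with 23.8 ± 3.50 TPM, CKAP2L with 16.3 ± 2.03 TPM, CDC25C with 8.94 ± 0.334 TPM and CCNA2, cyclin A2, with 6.93 ± 2.76 TPM; the last pair overlapped.

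IFNγ lowered most of the members in both siRNA backgrounds. In siCTRL cells 22 of the 33 fell and none rose (limma), while 6.14% of all tested genes fell and 6.8% rose; the members' median log2 change was -0.39, against -0.07 over all tested genes. In siMITF cells 32 of 33 fell, and none rose, against 12.2% and 7.99% of all tested genes, with a median log2 change of -0.67 against -0.10. Every library with IFNγ was below every library without it for 29 members in siCTRL cells and for 32 in siMITF cells. The same held, in this direction, for 18.1% and 28.4% of all tested genes. Within single replicate numbers, 33, 31 and 32 members were lower with IFNγ in siCTRL cells and 32, 33 and 33 in siMITF cells for numbers 1, 2 and 3. The count in siCTRL cells depended on single libraries: it was 10 without siCTRL replicate 2, 13 without siCTRL replicate 3, 13 without siCTRL + IFNγ replicate 1 and 11 without siCTRL + IFNγ replicate 3, with all calls downward, while 2.24%, 3.58%, 3.01% and 2.91% of all tested genes fell in these fits. With the replicate number as a block, since libraries with one number resembled each other, 28 members fell in siCTRL cells, against 16% of all tested genes. The 6 added calls were PLK1, BUB1B, KIF2C, AURKA, CKAP2L and ECT2, with the p-values given beside each. The shift of -0.10 over all genes in siMITF cells is part of the members' changes there: after each library was centred on its median, 31 members fell with a median of -0.63, against 18.1% of all tested genes. When mitochondrially encoded genes were left out and TPM rescaled, 27 fell in siCTRL cells and 32 in siMITF cells, against 9.2% and 13.5% of all tested genes.

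**Figure D1:**
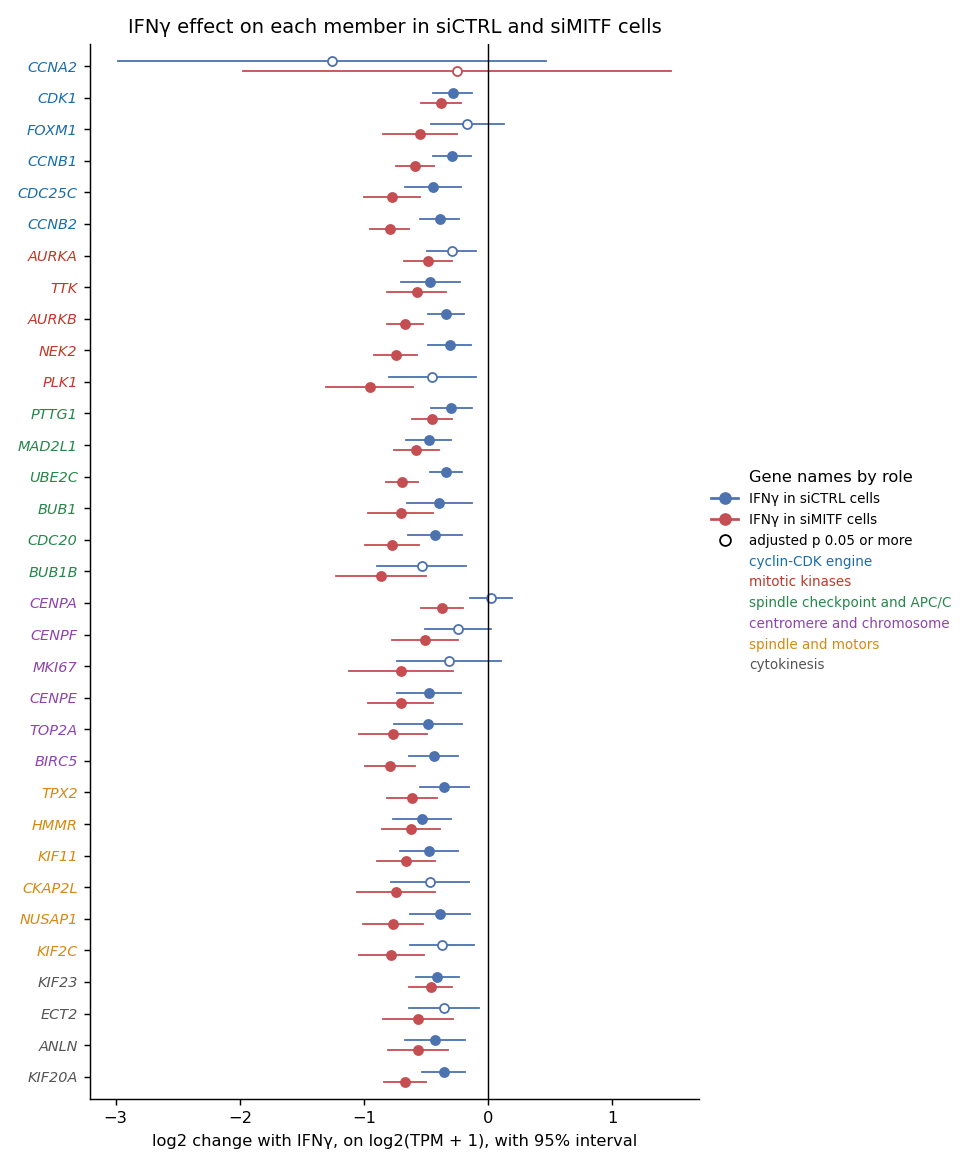
Change in log2(TPM + 1) with IFNγ for each of the 33 members in siCTRL cells (blue) and siMITF cells (red), with 95% intervals from limma; names are coloured by role and open points did not pass the adjusted p. All red points but CCNA2 passed the test and lay between -0.95 and -0.37; CENPA was the only blue point above 0, at 0.02.

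In the cyclin-CDK engine, CCNB2, cyclin B2, had 103, 106 and 102 TPM in siCTRL and 73.0, 84.6 and 79.6 TPM in siCTRL + IFNγ. It had 105, 115 and 106 TPM in siMITF and 59.2, 64.9 and 62.4 TPM in siMITF + IFNγ. Neither pair of conditions overlapped, and siMITF + IFNγ was also below siCTRL + IFNγ in every library. CCNB2 fell with IFNγ by a log2 change of -0.39 ± 0.07 (SE) in siCTRL cells (limma adjusted p = 0.00308) and of -0.79 ± 0.07 in siMITF cells (limma adjusted p = 5.35e-06). CDC25C, the phosphatase that activates CDK1, had 8.71, 8.79 and 9.32 TPM in siCTRL and 6.28, 6.75 and 5.87 TPM in siCTRL + IFNγ. It had 8.07, 9.36 and 8.95 TPM in siMITF and 4.36, 5.54 and 4.35 TPM in siMITF + IFNγ. These did not overlap either, with log2 changes of -0.45 ± 0.10 (limma adjusted p = 0.0133) and -0.77 ± 0.10 (limma adjusted p = 0.000191). CCNB1 and CDK1, the mitotic cyclin and its kinase, fell less, by log2 changes of -0.29 and -0.29 in siCTRL cells and of -0.59 and -0.38 in siMITF cells. FOXM1, the transcription factor of this gene program, fell in siMITF cells (log2 change -0.55 ± 0.14, limma adjusted p = 0.0132), and its change of -0.17 ± 0.14 in siCTRL cells did not pass (limma adjusted p = 0.486); 15.9% of its exonic bases are shared with ITFG2 on the opposite strand, and the library kit does not keep strand.

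CCNA2 stood apart from the other members. It had 9.30, 7.58 and 3.91 TPM in siCTRL, 4.20, 5.09 and 0 TPM in siCTRL + IFNγ, 8.03, 5.87 and 6.11 TPM in siMITF, and 26.1, 2.30 and 1.95 TPM in siMITF + IFNγ. It is listed at 0 in siCTRL + IFNγ replicate 3, and siMITF + IFNγ replicate 1 was over 10 times each of the other two libraries of its condition, while no other member had a coefficient of variation above 25.6% within a condition. Cyclin A2 pairs with CDK2 and CDK1 through S phase and G2. CCNA2 passed in no comparison, and its interval for IFNγ in siMITF cells ran from -1.97 to 1.48. It shares 254 of 2748 exonic bases with EXOSC9 on the opposite strand, whose mean was 67.8 TPM, and whether such reads entered its values was not tested. In all, 7 members share exonic bases with a gene of at least 2 TPM: NUSAP1 and FOXM1, with the shares given beside their values, CCNA2 (9.24%), CDC25C (8.8%), CENPA (7.08%), KIF20A (up to 3.43%) and ANLN (1.3%).

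Among the mitotic kinases, PLK1, which drives centrosome maturation and mitotic entry, showed the largest fall of any member in siMITF cells in the fit of all libraries. It had 174, 194 and 180 TPM in siMITF and 69.2, 112 and 106 TPM in siMITF + IFNγ, a log2 change of -0.95 ± 0.16 (limma adjusted p = 0.00114). In siCTRL it had 140, 143 and 147 TPM and in siCTRL + IFNγ 86.1, 121 and 111 TPM; the libraries did not overlap, but the log2 change of -0.45 ± 0.16 missed the threshold (limma adjusted p = 0.0938) and passed it with the replicate block (limma adjusted p = 0.00880). In both conditions with IFNγ, replicate 1 was the lowest for PLK1. Over the alternative fits the log2 change of PLK1 with IFNγ in siMITF cells ran from -1.08 to -0.74. That of BUB1B ran from -0.95 to -0.77, so the rank of PLK1 depended on the fit. NEK2, a centrosome kinase, had 30.5, 30.0 and 31.2 TPM in siCTRL, 24.0, 26.5 and 23.0 TPM in siCTRL + IFNγ, 36.6, 38.1 and 34.9 TPM in siMITF and 22.1, 22.3 and 19.8 TPM in siMITF + IFNγ. Its conditions with IFNγ were below those without, with log2 changes of -0.31 ± 0.08 (limma adjusted p = 0.0238) and -0.74 ± 0.08 (limma adjusted p = 2.50e-05). TTK (MPS1), which starts spindle checkpoint signalling, had 27.0, 31.5 and 26.9 TPM in siCTRL and 18.0, 22.7 and 20.4 TPM in siCTRL + IFNγ. It had 36.6, 37.3 and 34.4 TPM in siMITF and 24.0, 27.0 and 21.0 TPM in siMITF + IFNγ, and it fell in both backgrounds (log2 changes of -0.47 and -0.58). AURKA, the Aurora kinase of spindle poles, fell in siMITF cells (-0.49 ± 0.09, limma adjusted p = 0.00220), while its change of -0.29 ± 0.09 in siCTRL cells lay at the threshold (limma adjusted p = 0.0505) and passed with the block (limma adjusted p = 0.00496). AURKB, the Aurora kinase of the chromosomal passenger complex, fell in both, by log2 changes of -0.34 and -0.67.

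**Figure D2:**
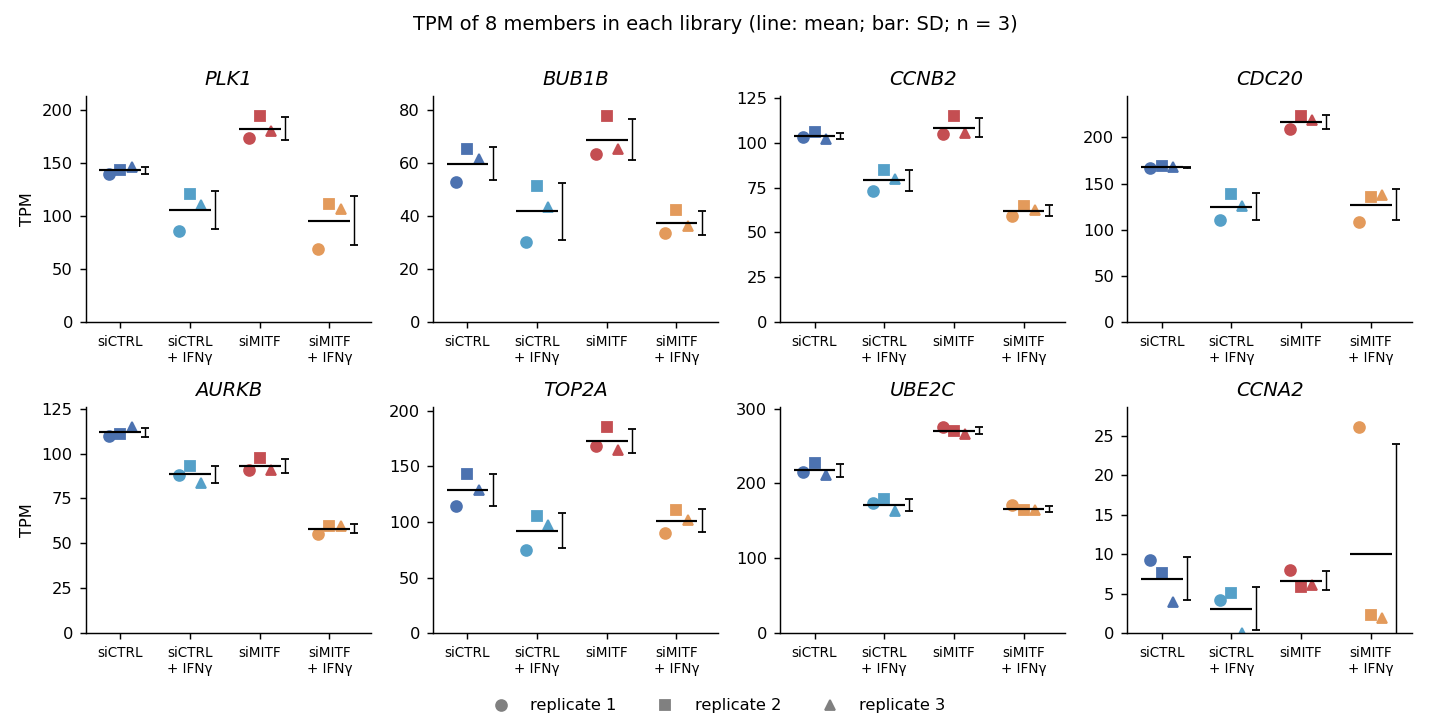
TPM of 8 members in each library, with a line for the mean and a bar for the SD of 3 libraries per condition; the marker gives the replicate number, and the lower part of the CCNA2 bar in siMITF + IFNγ lies below 0 and is not drawn. In all but CCNA2 every library with IFNγ was below every library without IFNγ of the same siRNA; AURKB was also lower with siMITF than with siCTRL, while CDC20, TOP2A and UBE2C were higher with siMITF when IFNγ was absent.

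The spindle checkpoint and APC/C factors all fell in siMITF cells, and 5 of 6 fell in siCTRL cells, against 12.2% and 6.14% of all tested genes. None of them passed for the difference between the backgrounds. BUB1B (BUBR1), the checkpoint protein that binds CDC20, had 63.4, 77.6 and 65.4 TPM in siMITF and 33.6, 42.4 and 36.2 TPM in siMITF + IFNγ (log2 change -0.86 ± 0.17, limma adjusted p = 0.00278). In siCTRL it had 52.8, 65.2 and 61.3 TPM and in siCTRL + IFNγ 30.3, 51.4 and 43.6 TPM, without overlap, but the change of -0.53 ± 0.17 did not pass (limma adjusted p = 0.0530), and did so with the block (limma adjusted p = 0.00101). CDC20 itself, which activates the APC/C, had 167, 169 and 168 TPM in siCTRL and 110, 139 and 126 TPM in siCTRL + IFNγ. It had 209, 223 and 219 TPM in siMITF and 108, 136 and 138 TPM in siMITF + IFNγ. Its siCTRL libraries were within 2 TPM of each other and those with IFNγ spread more widely below them; the log2 changes were -0.43 ± 0.10 (limma adjusted p = 0.0133) and -0.77 ± 0.10 (limma adjusted p = 0.000135). MAD2L1 (MAD2), the checkpoint inhibitor of CDC20, had 114, 125 and 115 TPM in siCTRL and 80.3, 89.5 and 83.9 TPM in siCTRL + IFNγ. It had 139, 143 and 136 TPM in siMITF and 96.3, 102 and 82.5 TPM in siMITF + IFNγ, and its log2 changes with IFNγ were close, -0.48 ± 0.08 and -0.58 ± 0.08. BUB1, the kinetochore kinase of the checkpoint, fell by log2 changes of -0.39 and -0.71. UBE2C fell by log2 changes of -0.34 and -0.69, and PTTG1 by -0.30 and -0.45.

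For the centromere and chromosome proteins the falls covered 6 of 6 members in siMITF cells and 3 of 6 in siCTRL cells. Of all tested genes 12.2% and 6.14% fell, and no member of this group passed for the difference between the backgrounds. BIRC5 (survivin), a subunit of the chromosomal passenger complex, had 97.5, 101 and 103 TPM in siCTRL and 63.9, 82.5 and 76.2 TPM in siCTRL + IFNγ. It had 124, 128 and 126 TPM in siMITF and 65.8, 75.4 and 76.8 TPM in siMITF + IFNγ, with log2 changes of -0.44 ± 0.09 (limma adjusted p = 0.00702) and -0.79 ± 0.09 (limma adjusted p = 5.58e-05). TOP2A, the topoisomerase that untangles sister chromatids, had 115, 143 and 129 TPM in siCTRL, 74.5, 106 and 97.0 TPM in siCTRL + IFNγ, 168, 185 and 165 TPM in siMITF and 90.3, 111 and 102 TPM in siMITF + IFNγ. It fell in both backgrounds (-0.48 and -0.77), from a higher start in siMITF cells. CENPE, the kinetochore motor that brings chromosomes to the spindle equator, had 21.2, 27.8 and 22.4 TPM in siCTRL and 14.6, 19.2 and 16.7 TPM in siCTRL + IFNγ. It had 28.7, 32.6 and 27.7 TPM in siMITF and 17.3, 18.8 and 17.1 TPM in siMITF + IFNγ, and fell in both (-0.48 and -0.71). CENPA, the histone H3 variant that marks the centromere, was the member whose estimate in siCTRL cells was not below 0. It had 37.8, 40.9 and 35.1 TPM in siCTRL and 37.7, 41.4 and 36.3 TPM in siCTRL + IFNγ, which overlapped, and the interval of its log2 change of 0.02 ran from -0.15 to 0.19. In siMITF it had 45.3, 44.9 and 44.3 TPM and in siMITF + IFNγ 34.5, 35.6 and 33 TPM, a log2 change of -0.37 ± 0.08 (limma adjusted p = 0.00495). MKI67, which encodes the proliferation antigen Ki-67, and CENPF, a kinetochore protein, fell in siMITF cells (-0.70 and -0.51). Their changes in siCTRL cells, -0.31 and -0.24, did not pass, and neither did the difference between the backgrounds.

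All 6 spindle proteins and motors and all 4 cytokinesis factors fell in siMITF cells, against 12.2% of all tested genes. KIF2C (MCAK), a motor that takes microtubules apart, had 85.3, 96.0 and 91.7 TPM in siCTRL and 59.2, 79.4 and 73.1 TPM in siCTRL + IFNγ. It had 102, 107 and 105 TPM in siMITF and 50.8, 68.2 and 64.5 TPM in siMITF + IFNγ, a log2 change of -0.78 ± 0.12 (limma adjusted p = 0.000568). KIF2C libraries did not overlap in either background, but the change of -0.37 ± 0.12 in siCTRL cells missed the threshold (limma adjusted p = 0.0630), which it passed with the block (limma adjusted p = 0.00296). NUSAP1, which bundles spindle microtubules, had 96.0, 112 and 102 TPM in siCTRL and 66.4, 89.0 and 82.4 TPM in siCTRL + IFNγ. It had 122, 129 and 123 TPM in siMITF and 64.4, 78.8 and 76.1 TPM in siMITF + IFNγ, and fell in both (-0.39 and -0.77). NUSAP1 shares 81.4% of its exonic bases with the gene ENSG00000285920 on the same strand, so the split of reads between these genes is uncertain. HMMR, a spindle assembly factor, had 58.5, 72 and 63.8 TPM in siCTRL and 39.3, 49.0 and 45.4 TPM in siCTRL + IFNγ, the largest fall in siCTRL cells that passed the test (-0.53 ± 0.11, limma adjusted p = 0.00590). It had 66.3, 72 and 64.1 TPM in siMITF and 45.0, 47.4 and 38.5 TPM in siMITF + IFNγ (-0.62 ± 0.11, limma adjusted p = 0.00141). KIF11 (Eg5), the motor that pushes spindle poles apart, had 41.4, 46.4 and 45.9 TPM in siCTRL and 27.3, 35.3 and 33.3 TPM in siCTRL + IFNγ. It had 45.8, 50.0 and 47.2 TPM in siMITF and 26.3, 33.1 and 30.1 TPM in siMITF + IFNγ, and fell in both (-0.47 and -0.66). TPX2, the activator of AURKA, fell by log2 changes of -0.35 and -0.62, and CKAP2L, a spindle protein, changed by -0.47 (limma adjusted p = 0.0537, with the block 0.00133) and -0.74 (limma adjusted p = 0.00320). In cytokinesis, the motors KIF20A and KIF23 and the contractile ring scaffold ANLN fell in both backgrounds, with log2 changes from -0.36 to -0.42 in siCTRL cells and from -0.46 to -0.67 in siMITF cells. ECT2, the RhoA exchange factor of the cleavage furrow, fell in siMITF cells (-0.57), and its change in siCTRL cells of -0.36 did not pass (limma adjusted p = 0.0954) unless the block was fitted (limma adjusted p = 0.00541).

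The difference between the IFNγ effects in siMITF and siCTRL cells was tested as an interaction, in which a negative value means that IFNγ lowered the gene more in siMITF cells. No member passed (limma; 0.947% of all tested genes did), while 13 members had an unadjusted p under 0.05, against 7.67% of all tested genes. The estimates were negative for 32 of 33 members, against 57.7% of all tested genes, with a median of -0.30 against -0.03. For numbers 1, 2 and 3 alone, 31, 31 and 32 members had a more negative change in siMITF cells, with medians of -0.27, -0.34 and -0.28. Members moved together within a library (median correlation of deviations from condition means 0.61). Counts of signs over members are therefore not separate observations of the interaction. The 3 largest negative estimates were those of PLK1 (-0.51 ± 0.23, limma adjusted p = 0.634), NEK2 (-0.44 ± 0.11, limma adjusted p = 0.133) and KIF2C (-0.41 ± 0.17, limma adjusted p = 0.567). Over the alternative fits the estimate of PLK1 ran from -0.65 to -0.29 and that of NEK2 from -0.48 to -0.37. CCNA2 was the exception with an estimate of 1.01 ± 1.12, which became -0.029 when siMITF + IFNγ replicate 1 was left out. A fit that took the replicate number as a block called 4 members, against 2.16% of all tested genes: CCNB2 (limma adjusted p = 0.0156), UBE2C (limma adjusted p = 0.0204), CENPA (limma adjusted p = 0.0332) and NEK2 (limma adjusted p = 0.0340), all negative. Median centring gave 3 and leaving out the mitochondrially encoded genes also gave 3, against 2.06% and 1.69% of all tested genes.

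Without IFNγ, siMITF had smaller effects on the members, most of them upward. 8 members rose and 1 fell (limma), which is 24.2% and 3.03% of the members, against 21% of all tested genes that rose and 13.8% that fell; the share that rose is close to that of all genes. The median log2 change was 0.17, against 0.06 over all tested genes. TOP2A rose most (0.42 ± 0.13, limma adjusted p = 0.0212), then CDC20 (0.37 ± 0.10, limma adjusted p = 0.0123), TTK (0.33 ± 0.11, limma adjusted p = 0.0321), BIRC5 (0.32 ± 0.09, limma adjusted p = 0.0157) and UBE2C (0.31 ± 0.06, limma adjusted p = 0.00140). The smallest rises were those of NEK2 (0.25), MAD2L1 (0.24) and CENPA (0.24). UBE2C had 215, 227 and 211 TPM in siCTRL and 275, 270 and 265 TPM in siMITF, and the libraries of all 8 genes were higher in siMITF without overlap, as in 16 members in all, against 33% of all tested genes. None of the 6 cyclin-CDK genes, the 6 spindle genes and the 4 cytokinesis genes passed in the fit without a block; CDK1 changed by 0.09 (interval -0.07 to 0.25) and CCNB2 by 0.06 (interval -0.09 to 0.22). With the replicate number as a block 15 rose and 1 fell, against 28.8% and 18.9% of all tested genes; the added calls were CENPE (limma adjusted p = 0.00412), NUSAP1 (0.00564), FOXM1 (0.00736), KIF20A (0.00926), PLK1 (0.0175), CCNB1 (0.0218) and KIF2C (0.0366). None of these 7 passed without the block. The count of 9 was 3 without siCTRL replicate 1, 4 without siCTRL replicate 3, 5 without siMITF replicate 1 and 3 without siMITF replicate 2, in fits that called 27.6%, 27.4%, 27.2% and 27.3% of all tested genes.

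AURKB was the member that fell with siMITF. It had 110, 111 and 115 TPM in siCTRL and 90.9, 97.6 and 91.0 TPM in siMITF, a log2 change of -0.26 ± 0.07 (limma adjusted p = 0.00868). With IFNγ it had 88.3, 93.0 and 83.7 TPM in siCTRL + IFNγ and 55.4, 59.4 and 59.9 TPM in siMITF + IFNγ, a log2 change of -0.59 ± 0.07 (limma adjusted p = 2.18e-05). The libraries overlapped in neither comparison. BIRC5, which works in one complex with AURKB, had the opposite direction without IFNγ.

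With IFNγ present, siMITF lowered 4 members and raised none (limma). The share of 12.1% lowered is close to the 14.7% of all tested genes that fell, while 18.4% of all tested genes rose. The median log2 change was -0.10, against 0.03 over all tested genes, and it rested on single libraries: it was -0.022 without siCTRL + IFNγ replicate 2, -0.057 without siMITF + IFNγ replicate 1 and -0.19 without siCTRL + IFNγ replicate 1. Within replicate number 1, 15 members were higher and 18 lower with siMITF (median -0.028), against 30 and 25 lower within numbers 2 and 3 (medians -0.17 and -0.13). Beside AURKB these were BUB1 (-0.38 ± 0.12, limma adjusted p = 0.0273), CDC25C (-0.35 ± 0.10, limma adjusted p = 0.0213) and CCNB2 (-0.34 ± 0.07, limma adjusted p = 0.00304). BUB1 had 40.4, 54.8 and 50.1 TPM in siCTRL + IFNγ and 31.5, 40.8 and 38.3 TPM in siMITF + IFNγ, which overlapped at 1 library each. The libraries of the other 3 did not overlap. None of the 8 genes raised by siMITF without IFNγ passed upward here: TOP2A changed by 0.14, CDC20 by 0.02, TTK by 0.22, BIRC5 by -0.03, UBE2C by -0.04, NEK2 by -0.19, MAD2L1 by 0.14 and CENPA by -0.16, and the differences between these changes and those without IFNγ are the interactions above. With the replicate number as a block 7 fell (the 4 named, AURKA with limma adjusted p = 0.0227, KIF2C with 0.0374 and NEK2 with 0.0388) and TTK rose (limma adjusted p = 0.0311), against 21% and 25.3% of all tested genes. Without siCTRL + IFNγ replicate 2, only 2 passed, against 31.5% of all tested genes.

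**Figure D3:**
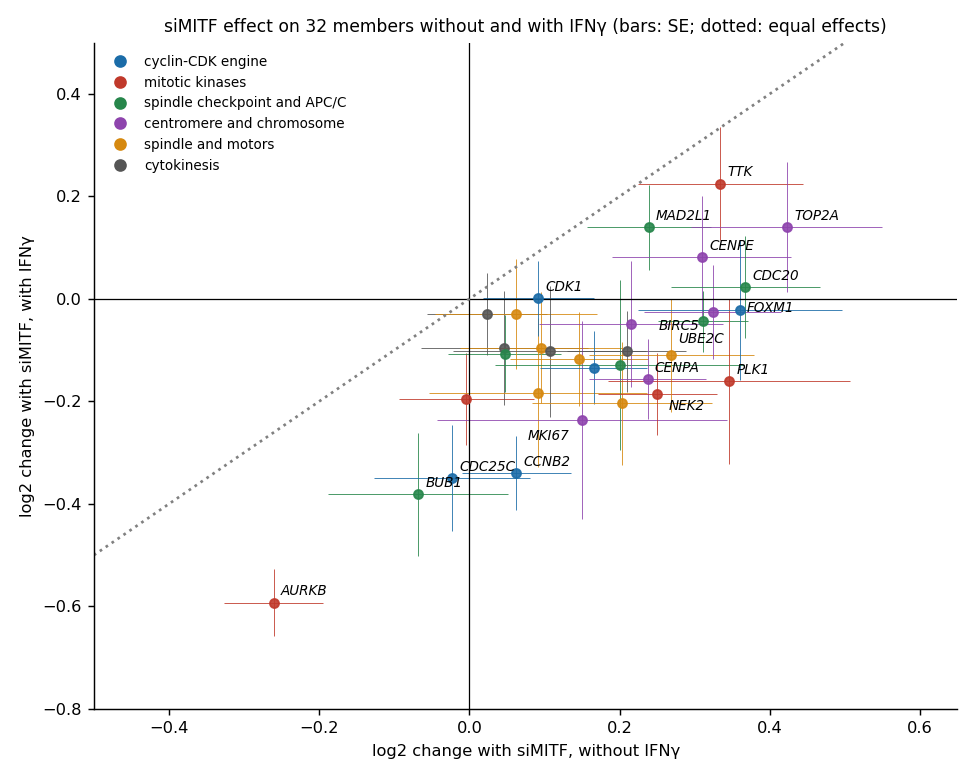
Change in log2(TPM + 1) with siMITF without IFNγ (horizontal) and with IFNγ (vertical) for 32 members, with SE bars and colours by role; CCNA2, at 0.01 and 1.02 with an SE of 0.79, is outside the range drawn. All 32 points lie below the dotted line of equal effects, and AURKB is lowest on both axes.

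Against siCTRL, the combination of siMITF and IFNγ lowered 28 of 33 members and raised none (limma), while 23.4% of all tested genes fell and 21.1% rose, with a median log2 change of -0.46 against -0.04. This comparison shares its siCTRL libraries with 2 of the comparisons above and its siMITF + IFNγ libraries with 2, so its values are no separate evidence; each condition also entered several of the other comparisons. AURKB fell most (-0.93 ± 0.07, limma adjusted p = 2.07e-07), from 112 ± 2.47 to 58.2 ± 2.46 TPM, followed by CDC25C (-0.80 ± 0.10), BUB1 (-0.77 ± 0.12), CCNB2 (-0.73 ± 0.07), BUB1B (-0.66 ± 0.17), CKAP2L (-0.65 ± 0.15), PLK1 (-0.61 ± 0.16) and KIF2C (-0.57 ± 0.12). CKAP2L had 14.5, 18.5 and 15.8 TPM in siCTRL and 8.29, 11.7 and 10.2 TPM in siMITF + IFNγ. The 5 that did not pass were CENPF, TTK, CCNA2, FOXM1 and CENPA; with the replicate block CENPF (limma adjusted p = 0.0221) and TTK (limma adjusted p = 0.0178) passed, against 31.1% of all tested genes that fell. No member passed the study's thresholds, which add an absolute log2 change of at least 1, in any comparison. Of all tested genes 6.1% did so for siMITF without IFNγ, 5.68% for siMITF with IFNγ, 2.52% for IFNγ in siCTRL cells, 2.95% for IFNγ in siMITF cells, 8.75% for the combination and 0.478% for the interaction.

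Levels of the members moved together over the 12 libraries. The median Pearson correlation of log2(TPM + 1) over 528 pairs of members was 0.89, which includes the differences between conditions. For deviations from the condition means it was 0.61, so that libraries of one condition were high or low for many members at once; such pairs share the libraries, their mitochondrial shares and their scaling. CCNA2 was least like the others in level (mean correlation 0.19), and CENPF in the deviations (-0.27). CENPF had 60.9 TPM in siMITF + IFNγ replicate 1 against 41.0 and 42.1 TPM in the other two, where most members were lowest in replicate 1.

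Other genes of the same phase also fell with IFNγ in many cases. Of 84 further G2/M genes, 83 were tested. With IFNγ 35 fell and 1 rose in siCTRL cells, and 65 fell with none rising in siMITF cells, with medians of -0.33 and -0.57. Those that fell were 42.2% and 78.3%, against 6.14% and 12.2% of all tested genes. All 10 condensin and cohesion genes fell with IFNγ in siMITF cells, among them NCAPH, a condensin I subunit (-0.74), as did 22 of 26 kinetochore and checkpoint genes, among them CENPM (-1.01) and SPC24 (-0.84). Of 24 spindle, motor and cytokinesis genes 20 fell, among them PRC1, the central spindle bundler (-0.74). Of the 12 APC/C subunits and partners 3 fell, 25% against 12.2% of all tested genes. They were the chain-extending E2 enzyme UBE2S (-0.70), the inhibitor FBXO5 (-0.43) and the subunit CDC23 (-0.27). With siMITF without IFNγ, 13 of the 83 rose and 7 fell, 15.7% and 8.43%, both below the 21% and 13.8% of all tested genes, with a median of 0.13 against 0.06. MAD1L1, the partner of MAD2 at kinetochores, fell from 110 to 54.9 TPM (-0.99 ± 0.08), CDC16, an APC/C subunit, from 121 to 59.9 TPM (-1.0 ± 0.07), and CDC25A, a phosphatase of CDK2 and CDK1, from 39.6 to 17.7 TPM (-1.11 ± 0.16), larger falls than that of any member.

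Of the transcription regulators of G2/M genes 18 of 19 were tested. With IFNγ in siMITF cells 5 fell and none rose, so 27.8% fell against 12.2% of all tested genes. The 4 largest falls were those of MYBL2 (B-MYB), which joins MuvB (-0.78 ± 0.14, limma adjusted p = 0.00154), E2F7 (-0.66), LIN9, a MuvB subunit (-0.49), and TFDP1, the E2F partner (-0.41). In siCTRL cells TFDP1 alone fell (-0.34), 5.56% of the list, which is close to the 6.14% of all tested genes. Among 36 S phase genes 15 (41.7%) fell with IFNγ in siCTRL cells and 24 (66.7%) in siMITF cells, and none rose. Of all tested genes 6.14% and 12.2% fell. The medians were -0.37 and -0.53, between those of the members and of all genes in siMITF cells. TYMS, thymidylate synthase, fell most (-0.60 and -0.84). With siMITF without IFNγ the S phase genes had a median of -0.06, against 0.06 over all tested genes and 0.17 for the members. There 1 rose and 6 fell. The 16.7% that fell is close to the 13.8% of all tested genes, while the 2.78% that rose is below their 21%. Of 16 tested G1 genes 4 (25%) fell in siCTRL and 6 (37.5%) in siMITF cells with IFNγ and none rose, with a median of -0.25 in both. The shares of all tested genes that fell were again 6.14% and 12.2%. The interaction medians were -0.30 for the members, -0.22 for the other G2/M genes, -0.14 for S phase and 0.00 for G1 genes.

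**Figure D4:**
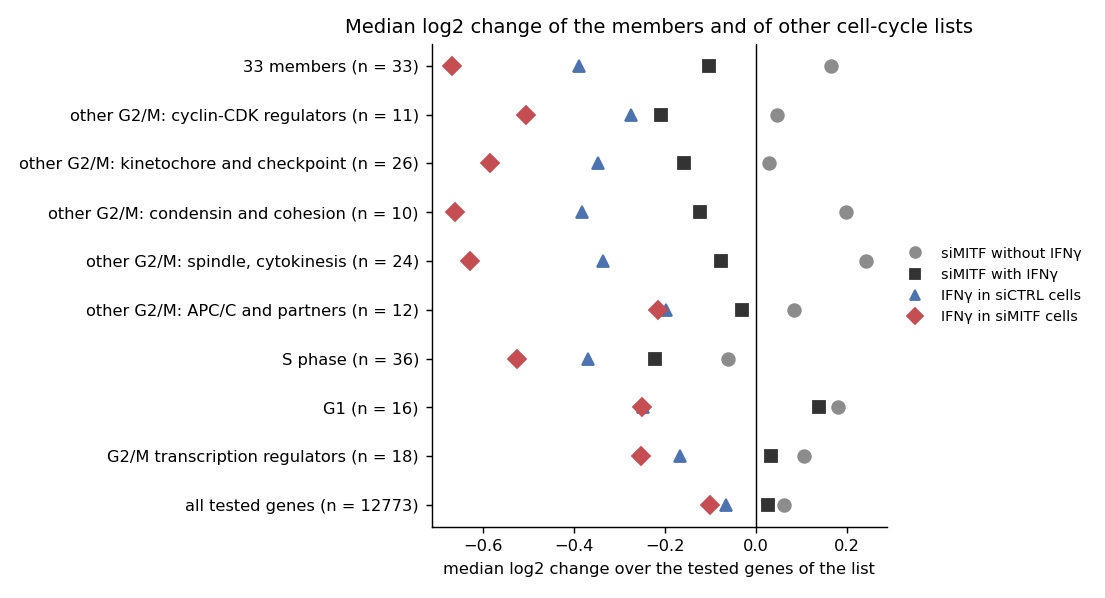
Median change in log2(TPM + 1) over the tested genes of each list for 4 comparisons, with no error drawn. The members and 3 of the 5 other G2/M lists had medians between -0.59 and -0.67 with IFNγ in siMITF cells, APC/C genes and G1 genes -0.22 and -0.25, and all tested genes -0.10.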

How the data were processed

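The 12 libraries of 624Mel RNA (4 conditions, 3 each) were unstranded TruSeq libraries. Per the submitters' processing notes and the paper's methods, the authors trimmed reads with Trimmomatic 0.39 and quantified them with kallisto on the Ensembl GRCh38 transcriptome; the deposited table gives TPM for each gene, and neither the Ensembl release nor the program that made gene sums is given in the sources used here. The authors' test was DESeq2 on counts, not used here. TPM hold no depth, so no counting interval is given. The study states at least 3 independent biological replicates for its experiments; how each RNA sequencing library was grown is not stated, so p-values measure the spread between these libraries.

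Tests were run in R 4.3.3 with limma 3.58.1 on log2(TPM + 1). They covered the 12773 gene IDs that averaged 2 TPM or more in some condition. All 12 libraries entered, each condition had its own coefficient, eBayes used an intensity trend, and two-sided p-values were adjusted over every gene tested. The 5 comparisons and the interaction come from the one fit. The fit was tested on simulated data. Full values are given for up to 8 members per comparison past the test with the largest change, or the 3 largest where fewer passed, and up to 4 genes per other list. The members and lists were chosen with earlier results of these data known. Exonic overlaps come from GENCODE v44 (GRCh38). Tables and figures used Python 3.11.15, pandas 2.3.3, numpy 2.4.6 and matplotlib 3.10.9.

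Replicate numbers come from the labels. The fit without a block, which gave the main calls, took no account of them. They paired the libraries in the fits with a replicate block and in the comparisons within single numbers. After condition means were subtracted, the 18 pairs with one number had correlations of 0.10 to 0.63 (median 0.28). The 36 pairs with different numbers had a median of -0.20. Deviations within a condition cancel out, so these medians are linked and are not separate evidence. Alternatives were other pseudocounts (0.1 and 0.5), filters, scalings, no trend, only the conditions compared, the replicate block and each library left out. The block with mitochondrially encoded genes left out, and the removal of the 4 libraries numbered 2, were added after seeing the data.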

Additional observations from a re-analysis of the deposited data

Results flagged for a closer look

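CENPW, a centromere protein of the further G2/M genes, had the 1 interaction in the lists examined that passed the test. It was 1 of the 83 tested genes of its list. That share is close to the 0.947% of all tested genes that passed, so the lists held no clear excess of such calls. Its mean was 107 TPM in siCTRL, 133 TPM in siCTRL + IFNγ, 87.6 TPM in siMITF and 73.3 TPM in siMITF + IFNγ, so that it was higher with IFNγ in siCTRL cells and lower with IFNγ in siMITF cells. The difference between the IFNγ effects was -0.57 ± 0.12 on the log2 scale (limma adjusted p = 0.0460). This call lies near the threshold of 0.05, and values of CENPW in single libraries and under the alternatives are not given here.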

How the results depend on the processing

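The members' medians kept their sign under every alternative and moved by less than 1 SD between libraries, but that of siMITF with IFNγ, -0.10, ran from -0.19 without siCTRL + IFNγ replicate 1 to -0.022 without siCTRL + IFNγ replicate 2. Called members numbered 9 for siMITF without IFNγ, 4 for siMITF with IFNγ, 22 for IFNγ in siCTRL cells, 32 for IFNγ in siMITF cells, 28 for the combination and 0 for the interaction. The study's thresholds left 0 in each. The share of all tested genes called is given after each count. For siMITF without IFNγ, 9 (34.8%) became 16 (43.5%) with quantile normalization, 14 (41.9%) without mitochondrially encoded genes, 17 (46.9%) with only the conditions compared, 16 (47.7%) with the replicate block, 16 (50.0%) with the block and without those genes, and 5 (24.1%) without the 4 libraries numbered 2; 17 of 33 is 51.5% and 16 of 33 is 48.5%, so the larger counts are close to the shares of all genes. For siMITF with IFNγ 4 (33.1%) became 9 (44.6%) with quantile normalization, 7 (43.2%) with median centring, 2 (21.4%) with only the conditions compared, 8 (46.3%) with the replicate block and 10 (49.5%) with the block and without mitochondrially encoded genes. For IFNγ in siCTRL cells 22 (12.9%) became 12 (8.40%) with only the conditions compared and 11 (5.86%) without the libraries numbered 2. For the interaction 0 (0.947%) became 1 (0.486%) with no filter on low values, 4 (2.30%) with quantile normalization, 3 (2.06%) with median centring, 3 (1.69%) without mitochondrially encoded genes, 4 (2.16%) with the replicate block and 6 (2.84%) with the block and without those genes; a fit of only the conditions compared was not possible there. Leaving out 1 library at a time gave 3 to 13, 2 to 6, 10 to 28, 30 to 32, 24 to 29 and 0 to 0 in the order above. The block ended no member's call; it added 7, 4, 6, 0, 2 and 4 calls. CCNA2's interaction, 1.01 in the fit of all libraries, ran from -0.029 to 1.57 when 1 library was left out, the reversal coming without siMITF + IFNγ replicate 1. Of 933 values of named members under alternatives, 870 kept direction and side of the threshold, 60 lost the call, 2 gained it and 1 reversed. Except in the interaction, the named members were chosen from those past the test. Their calls could thus be lost but not gained. The cause of these changes was not tested. TPM give no depth, so the precision of low genes such as CCNA2 and CDC25C is unknown.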
